A study of Mus musculus with 4 samples.

Results

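Galectins are a family of small animal lectins that bind beta-galactosides, and *Lgals3bp* encodes galectin-3-binding protein, a secreted glycoprotein that several of them bind. The 7 genes described here are *Lgals3bp* and the galectin genes *Lgals9*, *Lgals1*, *Lgals3*, *Lgals4*, *Lgals8* and *Lgals12*, of 21904 genes with a symbol in the deposited array table. They were chosen by name with their differences between genotypes already known, so those differences are given as a description, without a test. Each was represented by 1 of the 22206 transcript clusters, with 10 probes and no cross-hybridizing transcript listed.

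The salivary glands (parotid, submandibular and sublingual together) of 2 *Nfkbiz*-/- mice (called M47 and M49) and 2 *Nfkbiz*+/+ mice (called M30 and M55) were measured at 20 weeks of age on 1 whole-transcript Affymetrix array per mouse. *Nfkbiz*-/- mice lack IκB-ζ, an inducible nuclear regulator of NF-κB, in all their cells. All 4 mice were female and had not been caged with the other genotype after weaning. The labels name no treatment except isoflurane at sampling, and the methods describe the collection of pilocarpine-induced saliva from mice of this experiment. The label of M47 gives the strain as ICR and the other labels give none, while the methods describe another, mixed background. Nothing in the labels says whether the mice were littermates, and the p-values below measure only the spread between these animals. In limma, the spread of each gene is moderated by that over all clusters. Values are log2 signals from robust multiarray averaging (RMA), so a difference of 1 is 2-fold. *Nfkbiz* itself had log2 values of 6.18 in M47 and 5.78 in M49, against 5.04 in M30 and 7.29 in M55, and the sources used here do not say which part of the gene the probes cover. These values therefore do not check the genotypes.

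Galectins are made in the cytosol and leave the cell without a signal peptide. Outside, they cross-link glycoproteins that carry N-acetyllactosamine; inside, they bind glycans that become exposed when an endosome or lysosome is damaged. They are grouped by structure: galectin-1 has a single lectin domain and pairs with itself, galectin-3 joins a lectin domain to a long flexible tail, and galectins 4, 8, 9 and 12 carry a pair of lectin domains on a single chain. In glands and mucosae they are known for roles in leukocyte survival, in adhesion and in the sorting of secreted glycoproteins.

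The arrays differed in their mixture of cells. The summed signal of 5 measured markers of salivary acini was 26011 in M47 and 26653 in M49, against 26712 in M30 and 11874 in M55, and that of 5 duct markers was 7990 to 10422 in the 4 mice, so the labelled tissue was present in all of them. The low acinar sum of M55 came from secretory genes such as *Amy1* (10.93 in M55) and *Smr3a* (10.08 in M55), and the water channel gene *Aqp5* was highest there (9.77). The *Nfkbiz*+/+ mouse M55 stood apart. Its summed signal of 6 fat cell markers was 501.7, against 82.4 to 109.4 in the other mice, and that of 5 skeletal muscle markers was 260.2, against 62.8 to 67.6. The 4 erythroid markers summed to 166.3 in M47 and 505.8 in M49, against 4080 in M30 and 2451 in M55. No marker had a log2 value under 2.05, that of the muscle gene *Myh4* in M30. The part of these cell mixtures in the members' values was not tested. In such bulk tissue, fewer cells of a type and less RNA per cell cannot be told apart. Each difference below is therefore also given without each mouse in turn.

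**Figure D1:**
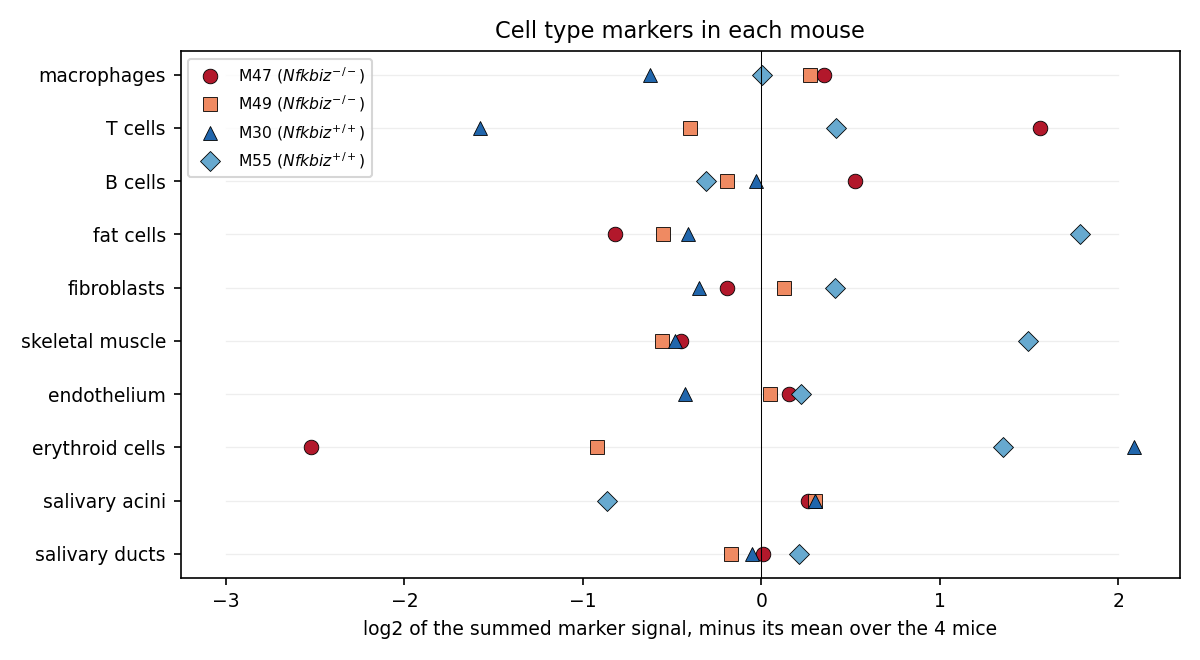
Log2 of the summed signal of the markers of each cell type in each mouse, minus its mean over the 4 mice (1 point per mouse, *Nfkbiz*-/- in red and orange, *Nfkbiz*+/+ in blue). M55 is high for fat cells and skeletal muscle and low for the acinar sum, and both *Nfkbiz*-/- mice are low for erythroid cells.

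The clearest separation was in *Lgals3bp*, on chromosome 11 from 118392751 to 118402092. Its product, also known as Mac-2 binding protein and in mice as CyCAP, binds galectins, collagens and fibronectin and has a scavenger receptor cysteine-rich domain. Its log2 value was 8.49 in M47 and 8.76 in M49, against 6.98 in M30 and 6.98 in M55. Both *Nfkbiz*-/- mice lay above both *Nfkbiz*+/+ mice by at least 1.51. The mean was 8.63 ± 0.19 in *Nfkbiz*-/- mice and 6.98 ± 0.0001 in *Nfkbiz*+/+ mice (SD, n = 2 each), a log2 difference of 1.64 (SE 0.21, from limma) or 3.13-fold. Leaving out single mice gave 1.51 to 1.78. The *Nfkbiz*+/+ values were nearly identical. The erythroid markers split by genotype as well, in the opposite direction.

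*Lgals9*, on chromosome 11 from 78962974 to 78984946, showed a similar separation. Galectin-9 is a ligand of the T cell receptor TIM-3, which *Havcr2* encodes, and is inducible by interferon in several cell types. It had a log2 value of 6.32 in M47 and 6.15 in M49, against 5.02 in M30 and 4.75 in M55. Again the genotypes did not overlap, with a gap of 1.13. The mean was 6.23 ± 0.12 in *Nfkbiz*-/- mice and 4.88 ± 0.19 in *Nfkbiz*+/+ mice (SD, n = 2 each), a log2 difference of 1.35 (SE 0.22) or 2.55-fold, and 1.22 to 1.49 without each mouse. *Lgals3bp* and *Lgals9* share chromosome 11 but lie far apart on it, and their nearest measured neighbours are described below.

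The sequence before the RefSeq start site of *Lgals3bp* and *Lgals9* is shown because these are the members whose genotypes stood furthest apart. It is the 250 bases upstream in GRCm38.p6, on the minus strand for both genes and read 5′ to 3′ towards the gene, with matches to the interferon regulatory factor (IRF) half-site AANNGAAA and to a pair of GAAA separated by any 2 bases in capitals, on either strand. The *Lgals3bp* window is chr11:118401960-118402209, of which 133 bases lie inside the transcript cluster as deposited, and the *Lgals9* window is chr11:78984925-78985174, of which 22 do.
Lgals3bp: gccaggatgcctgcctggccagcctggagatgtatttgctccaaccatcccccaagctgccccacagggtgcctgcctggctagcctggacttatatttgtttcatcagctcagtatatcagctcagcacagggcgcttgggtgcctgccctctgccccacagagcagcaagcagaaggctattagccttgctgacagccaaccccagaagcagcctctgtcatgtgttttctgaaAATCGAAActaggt
Lgals9: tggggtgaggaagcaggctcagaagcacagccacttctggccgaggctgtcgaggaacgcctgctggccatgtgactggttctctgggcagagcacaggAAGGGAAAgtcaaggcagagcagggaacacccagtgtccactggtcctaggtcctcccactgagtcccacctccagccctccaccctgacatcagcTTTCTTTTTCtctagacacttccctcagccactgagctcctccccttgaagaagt
The *Lgals3bp* window held 1 half-site, from -14 to -7 of the start site, which lies among the 133 bases inside the transcript cluster as deposited. The *Lgals9* window held a half-site from -151 to -144 and the pair from -55 to -46 on the other strand, which contains a further half-site. Of all 32851 promoter windows in the table, 21.3% held the half-site and 2.98% the pair. Promoter sequences were found for 5 of the 7 genes, and the windows of *Lgals3*, *Lgals4* and *Lgals8* held neither motif. The STAT motif TTCNNNGAA was found in none of the 5 windows and in 7.02% of all windows. The NF-κB motif was found in those of *Lgals3* and *Lgals8*, 2 of 5, and in 7.25% of all windows. Both of these windows lie wholly, with all 250 bases, inside the transcript cluster as deposited. A match describes the letters alone, not a bound site.

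*Lgals1* and *Lgals3* lay the other way. *Lgals1*, on chromosome 15 from 78926725 to 78930465, encodes galectin-1, abundant in stroma and known to promote the death of activated T cells. It had a log2 value of 5.09 in M47 and 5.21 in M49, against 5.72 in M30 and 5.62 in M55. Both *Nfkbiz*-/- mice were below both *Nfkbiz*+/+ mice, by at least 0.40. The mean was 5.15 ± 0.09 in *Nfkbiz*-/- mice and 5.67 ± 0.07 in *Nfkbiz*+/+ mice (SD, n = 2 each), a log2 difference of -0.52 (SE 0.20), and -0.58 to -0.46 without each mouse. The 5 fibroblast markers did not follow this order: they summed to 465.7 in M47 and 579.1 in M49, against 417.4 in M30 and 706.9 in M55, and 0 of 5 passed the thresholds given below.

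*Lgals3*, on chromosome 14 from 47367751 to 47386167, encodes galectin-3, first described as the macrophage antigen Mac-2 and made by many epithelia. Its log2 value was 6.17 in M47 and 6.11 in M49, against 6.37 in M30 and 6.51 in M55. The genotypes did not overlap, with a gap of 0.21. The mean was 6.14 ± 0.04 in *Nfkbiz*-/- mice and 6.44 ± 0.10 in *Nfkbiz*+/+ mice (SD, n = 2 each), a log2 difference of -0.30 (SE 0.20), and -0.37 to -0.23 without each mouse. The order of *Lgals3* was thus opposite to that of *Lgals3bp*, whose product is named for binding it. It was also opposite to the summed signal of 7 macrophage markers, 459.1 in M47 and 434.2 in M49, against 233.3 in M30 and 361.0 in M55. Of those markers, the phagocyte gene *Cd68*, the complement gene *C1qa* and the mannose receptor gene *Mrc1* rose (limma adjusted p of 0.468 to 0.503), 3 of 7 where 2.93% of all clusters were called upward. *Cd68* was not called without M47 or without M30 (0.93 and 0.47), *Cd68* and *C1qa* by neither form of the methods' t-test and *Mrc1* not by the form with unequal variances. The other 4 markers did not pass. At *Csf1r* (0.44), *C1qb* (0.52) and *C1qc* (0.53) both *Nfkbiz*-/- mice lay above both *Nfkbiz*+/+ mice, as at 18.2% of all clusters. Without M30 these differences were 0.29, 0.10 and 0.39, and without M55 they were 0.60, 0.935 and 0.67. The macrophage gene *Adgre1* lay the other way (-0.47, and -0.75 without M30). *C1qc* and *Adgre1* were named after their values were seen.

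The genotypes overlapped in the other galectin genes. *Lgals4*, on chromosome 7 from 28833794 to 28841708, encodes a galectin best known from gut epithelium, where it helps to sort glycoproteins to the cell's apical face. It had a log2 value of 5.13 in M47 and 5.49 in M49, against 5.25 in M30 and 5.24 in M55. The *Nfkbiz*-/- mice lay on either side of the *Nfkbiz*+/+ mice, and the log2 difference of 0.06 (SE 0.22) was -0.11 without M49 and 0.24 without M47. *Lgals8*, on chromosome 13 from 12439415 to 12464944, encodes a galectin that marks damaged vesicles for autophagy. It had 6.67 in M47 and 6.43 in M49, against 6.33 in M30 and 6.64 in M55, with 1 high and 1 low mouse in each genotype. Its log2 difference of 0.07 (SE 0.22) was -0.09 without M30 and 0.22 without M55.

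*Lgals12*, on chromosome 19 from 7596656 to 7607193, encodes a galectin found mainly in fat cells, where it restrains lipolysis. It had a log2 value of 5.75 in M47 and 5.66 in M49, against 6.60 in M30 and 5.74 in M55. M30 alone was high, and the 3 other mice lay between 5.66 and 5.75. The mean was 5.70 ± 0.07 in *Nfkbiz*-/- mice and 6.17 ± 0.61 in *Nfkbiz*+/+ mice (SD, n = 2 each), a log2 difference of -0.47 (SE 0.30) that was -0.04 without M30 and -0.89 without M55. *Lgals12* did not go with the summed signal of the 6 fat cell markers. That sum was 82.4 in M47 and 99.2 in M49, against 109.4 in M30 and 501.7 in M55. It was thus highest in M55, and *Lgals12* in M30. The fat cell marker *Lep*, named after its values were seen, was highest in M30 as well. It had 2.69 in M47 and 2.79 in M49, against 3.56 in M30 and 2.82 in M55. Its mean was below the lower quartile of every array. The other fat cell markers were each highest in M55.

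**Figure D2:**
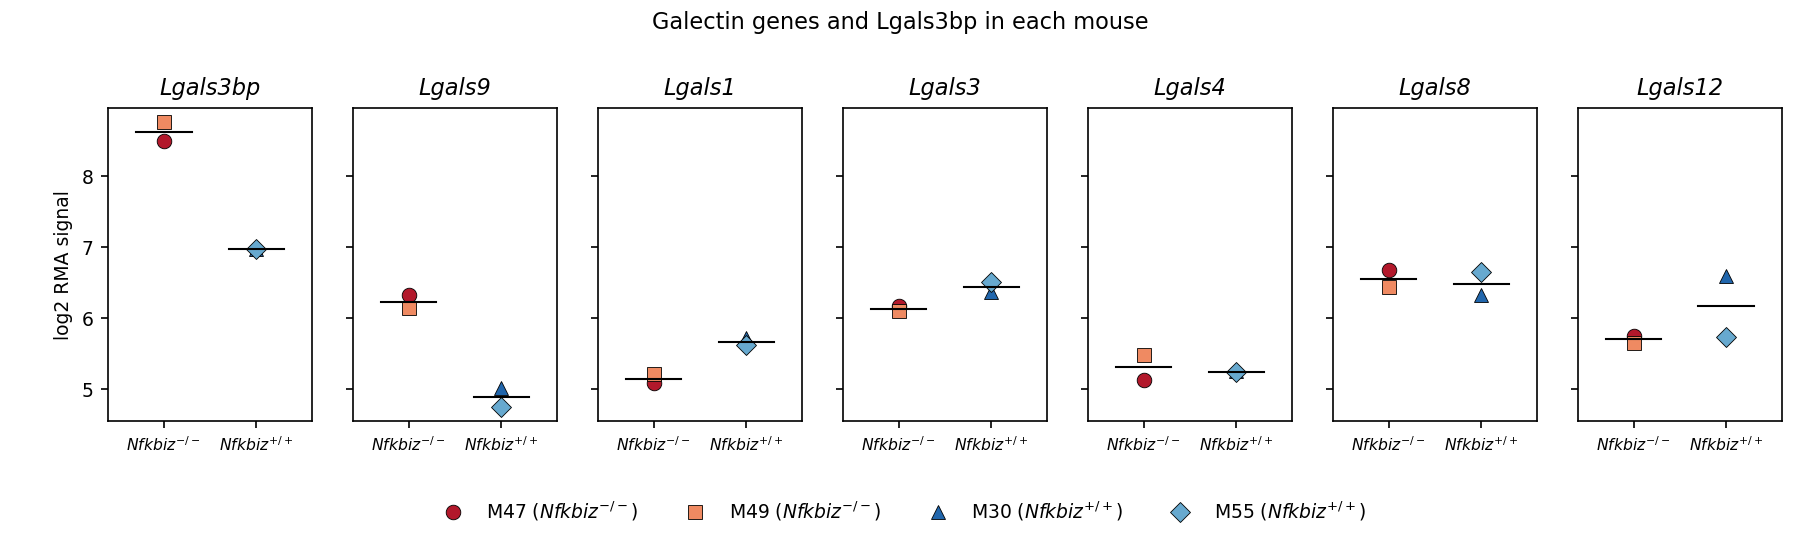
Log2 RMA signal of the 7 genes in each mouse (1 point per mouse, *Nfkbiz*-/- left and *Nfkbiz*+/+ right in each panel), with the mean of each genotype as a line. *Lgals3bp* and *Lgals9* are higher and *Lgals1* and *Lgals3* lower in both *Nfkbiz*-/- mice, while *Lgals12* is high in M30 alone.

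Clusters were called where limma's p before adjustment was under 0.05 and the genotypes differed by at least 1.5-fold. By this rule *Lgals3bp* and *Lgals9* were called higher in *Nfkbiz*-/- mice, 2 of 7 genes, where 2.93% of all clusters were, and 0 of 7 were called lower, where 3.69% were. The genotypes did not overlap at 2 genes in the upward and 2 in the downward direction, as at 18.2% and 21.5% of all clusters, or 39.7% in either direction. The members were chosen on this contrast, so nothing is read from these counts. *Lgals3bp* was not called by the methods' t-test with unequal variances, and *Lgals9* was. Over the 7 genes the median log2 difference was 0.06, and over all clusters it was -0.02. Without M55, *Lgals12* was called lower as well. Adjusted limma p-values were under 0.05 for 0 of 22206 clusters (the smallest was 0.0539), unadjusted ones for 2015, and the methods' t-test gave 2 after adjustment with equal and 1 with unequal variances.

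Each member's values in mice of the same genotype were close in most cases. The SD over 2 mice was 0.04 to 0.25 in *Nfkbiz*-/- mice, where its median over all clusters was 0.15, and 0.0001 to 0.61 in *Nfkbiz*+/+ mice, where it was 0.19. *Lgals4* varied most in *Nfkbiz*-/- mice and *Lgals12* in *Nfkbiz*+/+ mice. All 7 genes lay above the lower quartile of every array (3.44 to 3.53), so none was among the dimmest clusters.

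Of the other galectin family genes, 4 of 5 listed were measured and 0 passed both thresholds, where 6.62% of all clusters did, with a median log2 difference of 0.10. *Lgals7*, a galectin of stratified epithelia, had log2 values of 5.95 in M47 and 5.77 in M49, against 5.50 in M30 and 5.81 in M55 (difference 0.21, SE 0.22, limma adjusted p = 0.833). *Lgals2*, a relative of galectin-1, was highest in M47 (4.79) and lowest in M49, with 4.25 in M30 and 4.66 in M55 between them (-0.06, SE 0.30, adjusted p = 0.975). In both, the genotypes overlapped. The galectin-like gene *Lgalsl* had a difference of 0.17 (SE 0.20, adjusted p = 0.861), with both *Nfkbiz*-/- mice above both *Nfkbiz*+/+ mice, and the lens galectin-related gene *Grifin* one of 0.02 (SE 0.20, adjusted p = 0.99). *Lgals2* moved most with a single mouse, to 0.33 without M49 and -0.45 without M47.

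**Figure D3:**
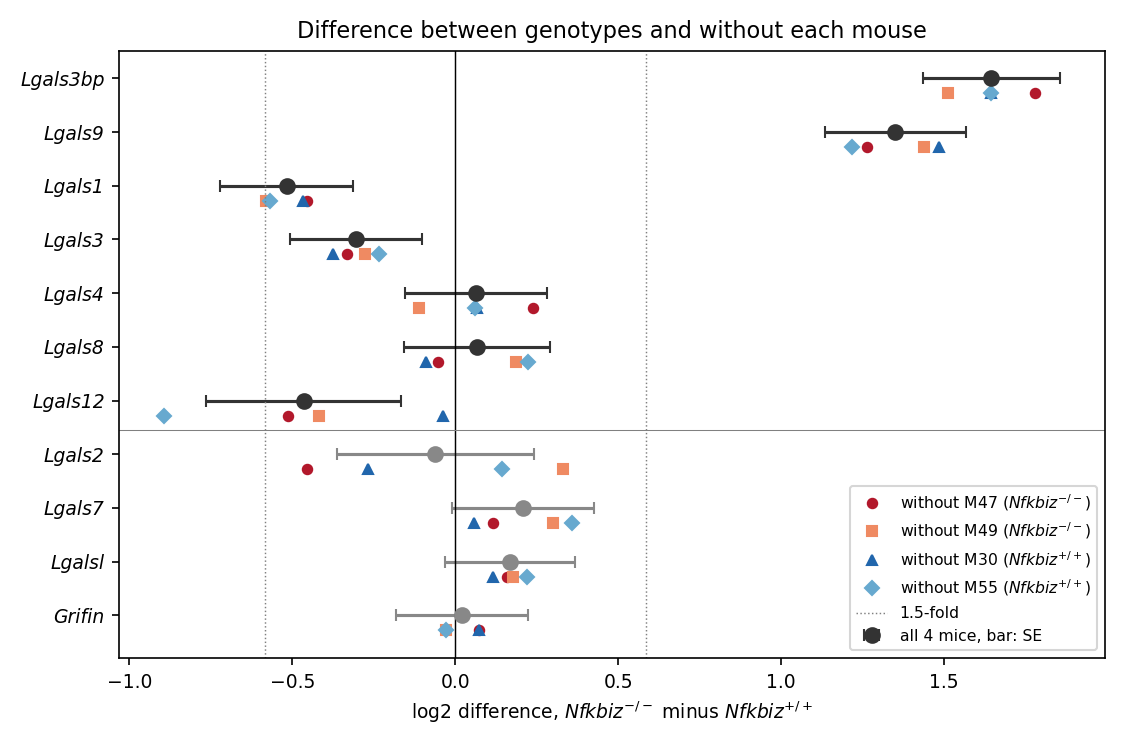
Log2 difference of each galectin gene, *Nfkbiz*-/- minus *Nfkbiz*+/+, with its SE from limma (large points) and the difference without each mouse (small points). Dotted lines mark a 1.5-fold difference, which *Lgals3bp* and *Lgals9* exceed in every case and *Lgals12* only without M55.

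Galectins read N-acetyllactosamine on branched N-glycans, and 14 genes whose enzymes build, branch or otherwise modify glycans were set beside them. Of these, 2 rose and 2 fell in *Nfkbiz*-/- glands and 10 did not pass, against 6.62% of all clusters called in either direction, and their median log2 difference was -0.08. *Mgat3*, whose enzyme adds the bisecting residue that hinders further branching, fell: it had 3.26 in M47 and 3.20 in M49, against 4.62 in M30 and 4.10 in M55 (-1.13, SE 0.24, limma adjusted p = 0.468). Both *Nfkbiz*-/- values of *Mgat3* lay below the lower quartile of every array (3.44 to 3.53). *Gcnt2*, which branches poly-N-acetyllactosamine chains, also fell, with 7.01 in M47 and 6.61 in M49, against 7.42 in M30 and 7.62 in M55 (-0.71, SE 0.23, adjusted p = 0.477). *B4galt1*, the main galactosyltransferase of N-acetyllactosamine, rose, with 9.11 in M47 and 9.33 in M49, against 8.56 in M30 and 8.70 in M55 (0.60, SE 0.21, adjusted p = 0.497). *Man2a1*, the Golgi mannosidase that opens the way to complex N-glycans, rose by a like amount (0.60, SE 0.21, adjusted p = 0.497).

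In all 4 the genotypes did not overlap, as at 39.7% of all clusters, and none passed after adjustment. The 4 were named because they were called, so nothing is read from the lack of overlap. *Mgat3* was called without each mouse in limma, but by neither form of the methods' t-test. *Gcnt2* was not called without M49 (-0.50) or without M55 (-0.61), *B4galt1* not without M49 (0.48) or without M30 (0.52), and *Man2a1* not without M49 (0.49) or without M55 (0.51). The brightest genes of the list that did not pass were *Mgat4a* (-0.24, SE 0.22), a branching enzyme, and *Gcnt1* (0.24, SE 0.28), which starts branched O-glycans. Named after their values were seen, the branching genes *Mgat2*, without M47 (0.81), and *Mgat1* and *Mgat5*, without M30 (0.60 and 0.81), passed only there.

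Among 15 genes of glycoproteins known to bind galectins, 5 rose, 0 fell and 10 did not pass, with a median log2 difference of 0.23. In either direction 6.62% of all clusters were called, and 2.93% upward. *Fn1*, which encodes fibronectin, a matrix ligand of galectin-3-binding protein, had 6.31 in M47 and 6.23 in M49, against 5.23 in M30 and 5.10 in M55 (1.10, SE 0.20, limma adjusted p = 0.468). It was the only one of the 5 called without each mouse and by both forms of the methods' t-test. *Tfrc*, the transferrin receptor, had 8.43 in M47 and 7.62 in M49, against 6.26 in M30 and 7.35 in M55 (1.22, SE 0.40, adjusted p = 0.478). *Cd44*, the hyaluronan receptor and a ligand of galectin-9, had 8.90 in M47 and 9.24 in M49, against 8.37 in M30 and 8.55 in M55 (0.61, SE 0.22, adjusted p = 0.504). The leukocyte genes *Ptprc*, which encodes CD45 (0.98, SE 0.41, adjusted p = 0.541), and *Itgam*, an integrin of phagocytes (0.78, SE 0.26, adjusted p = 0.478), were also called.

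The genotypes overlapped at *Ptprc*, where M55 was level with M49 (6.28 and 6.27). *Ptprc* was not called without M47 (0.49) or M30 (0.48), *Tfrc* not without M47 (0.82) or M30 (0.68), *Cd44* not without M49 (0.44) or M30 (0.52), and *Itgam* not without M47 (0.58) or M55 (0.53). The summed macrophage markers described above were higher in both *Nfkbiz*-/- mice as well, the summed signal of 5 T cell markers was 1371 in M47 and 352.8 in M49, against 155.7 in M30 and 621.5 in M55, and the part of either in these values was not tested. *Cd3e* had log2 values of 10.25 in M47 and 7.28 in M49, against 4.65 in M30 and 8.92 in M55. It carried most of the T cell sum in M47 and M55. *Cd4* was level with it in M49 (7.27) and above it in M30 (6.57). At each of the other 4 T cell markers both *Nfkbiz*-/- mice lay above both *Nfkbiz*+/+ mice, as at 18.2% of all clusters, and none passed. The difference of *Cd4* (0.36) was 0.06 without M49. That of *Cd3g* (0.62), named after its values were seen, was 0.31 without M30 and 0.93 without M55. *Havcr2*, named for its part as receptor of galectin-9, did not pass, with 3.99 in M47 and 4.17 in M49, against 4.19 in M30 and 4.35 in M55 (-0.19, SE 0.21, adjusted p = 0.846). The brightest genes of the list, *P4hb*, a protein disulfide isomerase that galectin-9 binds at the cell surface (-0.33, SE 0.27), and *Lamp2*, a lysosomal membrane protein (0.23, SE 0.23), did not pass, though *P4hb* was called lower without M30 (-0.64).

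The 12 genes of the response to damaged endosomes and lysosomes, in which galectins 3, 8 and 9 act as sensors, held 0 called in either direction, where 6.62% of all clusters were, with a median log2 difference of 0.03 and a range of -0.30 to 0.42. The brightest were *Pdcd6ip*, which encodes the repair factor ALIX (0.24, SE 0.20, limma adjusted p = 0.772), and *Tax1bp1*, an autophagy receptor (-0.17, SE 0.22, adjusted p = 0.873). Of genes named after their values were seen, the membrane repair gene *Chmp4b* was called lower without M30 (-0.62) and the autophagy gene *Atg16l1* higher without M55 (0.63).

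Galectin-3-binding protein belongs to the proteins with scavenger receptor cysteine-rich domains, of which 10 other genes were listed. Of these 1 was called higher and 1 lower, where 2.93% and 3.69% of all clusters were. *Msr1*, a scavenger receptor of macrophages, rose (4.12 in M47 and 3.86 in M49, against 3.14 in M30 and 3.66 in M55; 0.59, SE 0.25, limma adjusted p = 0.546), and *Dmbt1*, whose salivary product agglutinates bacteria, fell (4.14 in M47 and 5.28 in M49, against 7.26 in M30 and 5.34 in M55; -1.59, SE 0.61, adjusted p = 0.52). The M30 value of *Msr1* lay below the lower quartile of every array (3.44 to 3.53). The other 8 did not pass, *Cd5*, a T cell receptor modulator, among them (0.25, SE 0.27), and the median log2 difference was -0.04. *Msr1* was called without M55 alone: it had 0.46 without M47, 0.72 without M49 and 0.33 without M30. *Dmbt1* was not called without M47 (-1.02) or without M30 (-0.63). Of those named after their values were seen, the macrophage genes *Cd163*, without M47 (0.99), and *Cd5l*, without M30 (0.60), were called only there. *Dmbt1* thus lay in the opposite direction to *Lgals3bp*.

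**Figure D4:**
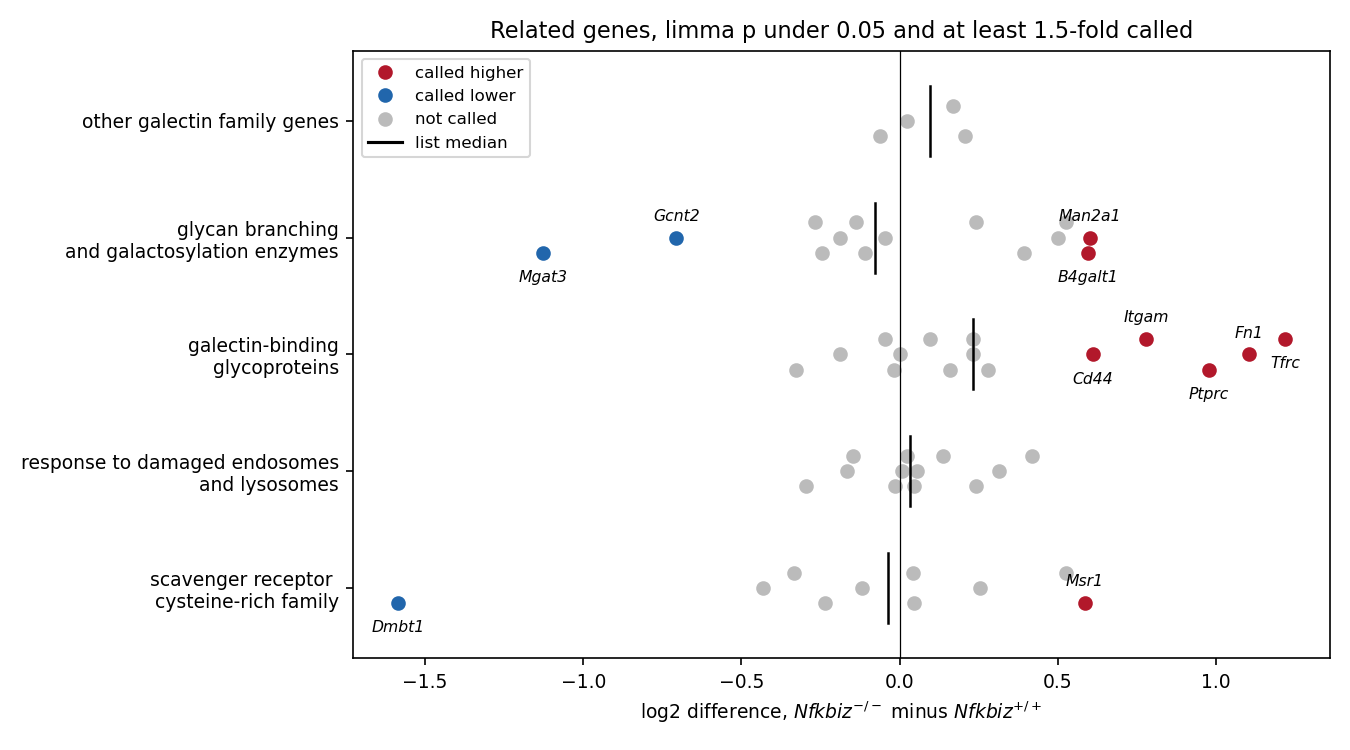
Log2 difference, *Nfkbiz*-/- minus *Nfkbiz*+/+, of each gene of 5 related lists (1 point per gene, named where called), with the list median as a line. All 5 called genes among the galectin-binding glycoproteins are higher, while the glycan enzymes hold 2 higher and 2 lower.

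The genes whose values most resembled those of the members were found by the distance between log2 values centred on each gene's mean, over the 4 arrays and 21904 genes. With 4 arrays many genes lie close by, so the distances are a description. Nearest to *Lgals3bp* were *Znfx1* (distance 0.40), *Oas1a* (0.41), *1700086D15Rik* (0.42), *Helz2* (0.44) and *Stat2* (0.47), and *Lgals9* was in place 6 (0.47). Nearest to *Lgals9* were *Znfx1* (0.11), *Baiap2* (0.15), *Eif2ak2* (0.16), *Dgki* (0.19) and *Helz2* (0.20), and *Lgals3bp* was in place 44 (0.47). *Znfx1* and *Helz2* thus stood in both lists. *Znfx1* had log2 values of 6.74 in M47 and 6.58 in M49, against 5.34 in M30 and 5.06 in M55, and *Helz2* had 7.85 in M47 and 7.56 in M49, against 6.29 in M30 and 6.24 in M55.

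No galectin was near *Lgals12*. Its nearest genes were *Fgf16* (distance 0.03), *Fanci* (0.05), *Hemgn* (0.10), *Btbd2* (0.11) and *Rab19* (0.12), and the closest other member was *Lgals1*, in place 2750. Each of these 5 was highest in M30: *Fgf16* had 4.78 in M47 and 4.72 in M49, against 5.67 in M30 and 4.79 in M55. The erythroid markers were also highest in M30 but did not set it apart alone. They summed to 4080 in M30 and 2451 in M55, against 166.3 in M47 and 505.8 in M49. Their part in these values was not tested.

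**Figure D5:**
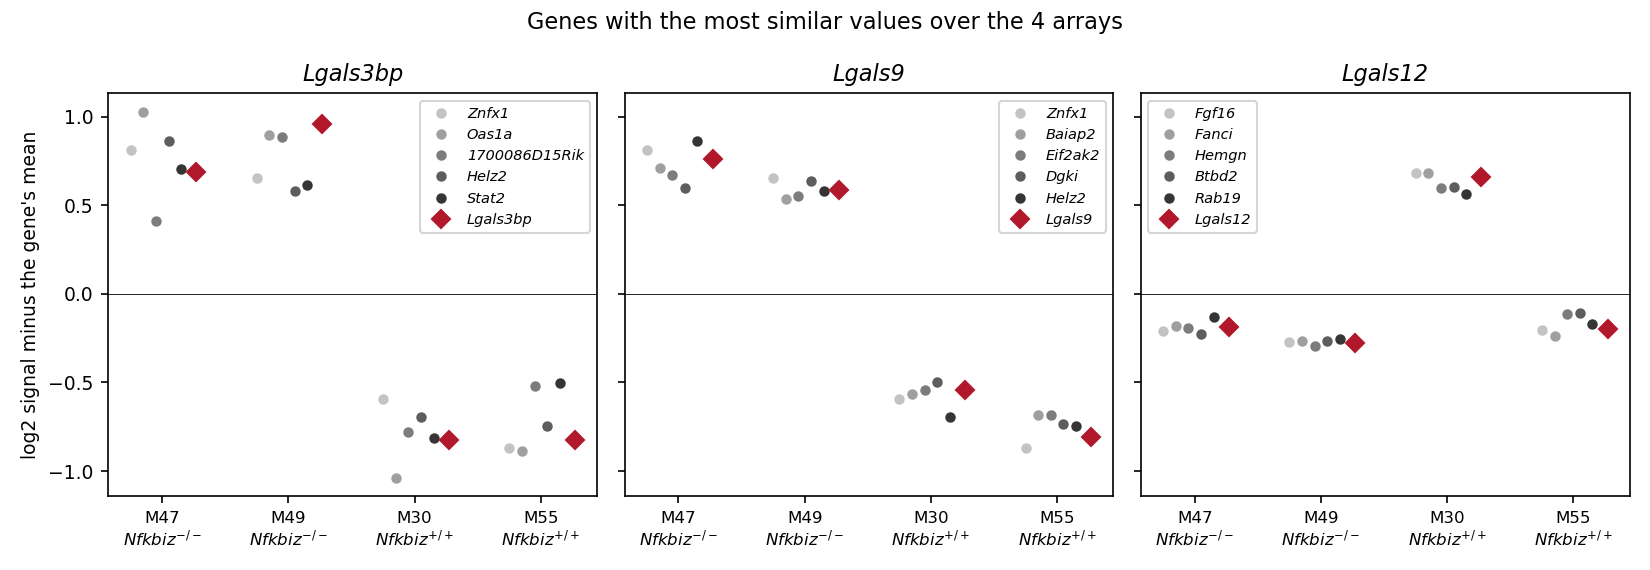
Log2 signal minus each gene's mean over the 4 arrays, for *Lgals3bp*, *Lgals9* and *Lgals12* (red) and the 5 genes nearest to each (grey), by mouse. The values near *Lgals3bp* and *Lgals9* split by genotype, and those near *Lgals12* set M30 apart.

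By position, the 2 nearest measured genes on each side of every member, 28 in all and taken after the values were seen, held 1 called higher and 2 called lower, where 2.93% and 3.69% of all clusters were. Their differences are given over all 4 mice only, so how far they rest on a single mouse is not shown. Beside *Lgals3bp*, *Cant1*, a nucleotidase gene that starts 4197 bases beyond it, had a log2 difference of -0.07 (SE 0.24, limma adjusted p = 0.961), and *Timp2*, a metalloproteinase inhibitor gene, -0.01 (SE 0.20, adjusted p = 0.995). Beside *Lgals9*, *Nos2*, the inducible nitric oxide synthase gene that ends 2720 bases before it, had 0.29 (SE 0.22, adjusted p = 0.747), and its values of 2.53 to 3.07 were below the lower quartile of every array. *Lyrm9*, a mitochondrial protein gene farther out, fell (-0.91, SE 0.24, adjusted p = 0.468). None of the 8 neighbours of *Lgals3bp* and *Lgals9* was called higher, where 2.93% of all clusters were, so nothing is read from this count.

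*Lgals8* overlapped *Heatr1*, a gene of ribosomal RNA processing, by 874 bases. *Heatr1* rose, with 6.82 in M47 and 6.85 in M49, against 5.60 in M30 and 6.49 in M55 (0.79, SE 0.30, limma adjusted p = 0.52). The genotypes overlapped at *Lgals8* and not at *Heatr1*. *Pla2g16*, the neighbour of *Lgals12* and the main phospholipase of fat cells, fell, with 5.47 in M47 and 5.52 in M49, against 6.13 in M30 and 6.58 in M55 (-0.86, SE 0.23, adjusted p = 0.468). It was highest in M55, where the sum of the fat cell markers was highest too, and *Lgals12* was not. *Lgals4* lay next to *Lgals7*, at a distance of 22145 bases, and the genotypes overlapped at both.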

How the data were processed

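RNA from the salivary glands of each mouse was labelled with the WT PLUS kit and hybridized to 1 array. The authors ran gene-level RMA in Affymetrix Power Tools (version not given in the sources used here), which included the normalization. They deposited log2 values for 22206 transcript clusters in a pair of tables that did not differ. The medians of the deposited arrays ran from 4.83 in M49 to 4.89 in M30. The fold changes, p-values and enrichment tables deposited beside them hold the authors' own comparisons and were not used. RMA pulls low values together and understates differences of dim genes. Mice were grouped by the genotype in their labels.

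Differences (*Nfkbiz*-/- minus *Nfkbiz*+/+) were fitted over all clusters in limma 3.58.1 (lmFit, eBayes; R 4.3.3) (2 residual and 5.53 prior degrees of freedom) with Benjamini-Hochberg adjustment. Called means a p before adjustment under 0.05 and at least a 1.5-fold difference. The fit was tested on simulated data. Where a gene had several clusters, the brightest stood for it. The 7 members, the lists and the comparisons were chosen with earlier results of these data known. Named were all galectin genes, called and the 2 brightest genes of each list, and the 5 genes nearest to each of 3 members; genes outside this rule are marked. Coordinates are those deposited, and 99.4% of genes on the same chromosome overlapped their position in the RefSeq table of GRCm38.p6, as all 11 galectin genes did. Promoter sequences are from RefSeq. *Lgals6* and *Muc19* were not measured under these symbols. Alternatives were both forms of the methods' t-test, an intensity trend, quantile normalization, median centring, a filter on dim clusters, 1 cluster per gene, a fold change of 2 and leaving out each mouse. The number of arrays limits the precision, and M47, M49, M30 and M55 are single animals.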

Additional observations from a re-analysis of the deposited data

How the results depend on the processing

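The log2 differences of the 7 genes moved by less than the spread between mice under quantile normalization and median centring. *Lgals4* changed sign without M49 alone, and *Lgals8* without M47 and without M30. With each mouse left out in turn, the differences ranged from 1.51 to 1.78 for *Lgals3bp*, 1.22 to 1.49 for *Lgals9* and -0.58 to -0.46 for *Lgals1*. They ranged from -0.37 to -0.23 for *Lgals3*, -0.11 to 0.24 for *Lgals4*, -0.09 to 0.22 for *Lgals8* and -0.89 to -0.04 for *Lgals12*. Each gene had 1 cluster, so a mean over clusters changed nothing. Of the 7, 2 were called, 1 (*Lgals9*, not *Lgals3bp*) by the t-test with unequal variances, and 2 to 3 without each mouse; this count was added after the data were seen. Over all clusters 1471 were called, 475 by the methods' t-test assuming equal variances and 212 not assuming them, 200 at a 2-fold difference, 901 of the brighter clusters alone and 1122 to 2690 without each mouse, most without M30. Over the 14 glycan enzyme genes 4 were called in limma, 1 by the equal-variance and 0 by the unequal-variance t-test, 1 at 2-fold and 1 to 5 without each mouse. Over the 15 galectin-binding glycoproteins 5 were called in limma, 1 by the equal-variance and 1 by the unequal-variance t-test, 2 at 2-fold, 3 among the brighter clusters and 2 to 4 without each mouse. The genes of damaged vesicles had 0 to 1 without each mouse and the other galectins 0. Over the 10 scavenger receptor family genes 2 were called in limma, 0 by the equal-variance and 0 by the unequal-variance t-test, 1 with an intensity trend, 1 after quantile normalization, 1 at 2-fold, 1 among the brighter clusters and 1 to 2 without each mouse. Without single mice these counts include genes called only there. With a mouse left out, the lone animal of its genotype is assumed to vary like the others. No paired analysis was possible because the labels give no replicate numbers that could tie a mouse of one genotype to a mouse of the other. The causes of these changes were not tested. With 2 mice per genotype an exact permutation test cannot reach 0.05.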
